A study of Mus musculus with 8 samples.

Results

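Open chromatin at the genes of the Polycomb repressive complexes was compared between *Arid1a* WT and *Arid1a* cKO pachytene spermatocytes. The set held 10 genes chosen by name, of 21938 protein-coding genes in the annotation. *Ezh1*, *Ezh2*, *Eed* and *Suz12* encode 4 members of Polycomb repressive complex 2 (PRC2). *Ring1*, *Rnf2*, *Bmi1*, *Pcgf2*, *Pcgf6* and *Cbx2* encode 6 members of Polycomb repressive complex 1 (PRC1).

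PRC2 places methyl groups on a lysine of histone H3, a mark of genes held silent, and PRC1 attaches ubiquitin to histone H2A. The complexes keep developmental genes off in many tissues. In the male germ line they are known for repressing somatic genes in spermatogenic cells, and a germline form of PRC1 that contains SCML2 acts during and after meiosis.

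The data came from ATAC-seq, in which a transposase cuts accessible DNA, on 4 *Arid1a* WT and 4 *Arid1a* cKO libraries of 100000 cells each. *Arid1a* encodes a DNA-contacting subunit of the BAF chromatin remodeler, and the study asked how its loss changes chromatin accessibility in meiosis. The cKO males were *Arid1a* fl/fl and carried the *Stra8-Cre* transgene, which is expressed in spermatogonia, whereas the WT males were *Arid1a* fl/fl or fl/+ without that transgene, on a CD1 background. Testes of several adult males went into each Sta-Put sedimentation, so a fraction was enriched for pachytene spermatocytes but was neither 1 animal nor pure. The study found that excision was inefficient, and cells with ARID1A were present in the cKO fractions as well.

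The deposited data were 1 peak list per genotype, with 19309 peaks covering 19.9 Mb in WT and 30244 peaks covering 37.8 Mb in cKO. The fold enrichment, pileup and q value of a peak came from 1 reference library of that genotype. The other 3 libraries entered through the overlaps that let a peak into the list. The start and end of a peak are the outermost bounds of these overlaps, so its width can fall short of that in the reference library. No spread between libraries could be computed, and no difference between genotypes was tested. The background of the reference libraries was 4.33 fragments per base in WT and 5.11 in cKO, and the lowest summit pileup (the number of fragments stacked at the top of a peak) was 13 and 14. The fold enrichment of a peak is its summit pileup over that background, with 1 added to both. The intervals below are exact 95% Poisson intervals of the pileup and cover counting error only. All 10 pachytene spermatocyte markers had a promoter peak in both lists. Promoter peaks were also present at 1 of 6 spermatogonial markers in WT and 3 in cKO (*Zbtb16*, *Kit* and *Etv5*), at 2 and 3 of 6 round spermatid markers, at 2 and 3 of 6 Sertoli markers, at 1 and 1 of 6 Leydig markers, and at 0 and 1 of 4 blood and endothelial markers. The part of other cells in the values below was not tested, and in such bulk libraries a changed mix of cells and a changed accessibility per cell cannot be told apart. The *Arid1a* peaks lay within 5114 bp of the start of that 77762 bp gene and did not test the genotype labels.

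All 10 Polycomb genes were open at their promoters in both genotypes, and none gained or lost a peak in the lists as deposited. A peak was assigned to a gene when it touched the gene body or the 1000 bp upstream of it, and to a promoter when it touched the stretch from 1000 bp upstream to 100 bp downstream of an annotated transcript start. The members held 12 peaks in WT and the same number in cKO, and each WT peak shared bases with a cKO peak. Filters on the lists changed this count, to 1 gained peak with a −log10 q of at least 5 or 10, to 2 gained peaks with 3 or more rows, and to 1 lost peak with lists of equal length, all at the second peaks of *Bmi1* or *Pcgf2*. Promoter peaks at 10 of 10 members stood beside 49.7% of all protein-coding genes in WT and 56.7% in cKO, and any peak beside 55.4% and 63.7%. A gained peak, one sharing no base with a peak of the other list, occurred at 23.6% of all genes, and a lost peak at 2.2%. No promoter peak of a member touched the promoter of another protein-coding gene.

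The promoter peaks were higher and wider in cKO at every member. The fold enrichment was higher in cKO at 10 of 10 members, as it was at 97.9% of the 10839 genes with a promoter peak in both lists. A ratio of at least 1.5 was reached by 7 of 10 members, against 59.4% of those genes. The cKO peak extended beyond the WT peak on both sides at 10 of 10 members, against 80.1%. Each row of a list is the part of a peak that overlaps a peak of another library, so a row count does not count libraries. The bounds of these rows are the only trace of the other libraries. Both peaks stood on 3 rows or more at 10 of 10 members, against 93.8%. The narrowest cKO row was wider than the widest WT row at 10 of 10 members, against 88.2%. A row cannot be wider than the peak of the reference library, so this count partly repeats the difference in peak width. The shares of the members were thus close to the background on most of these counts, which was already high.

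**Figure D1:**
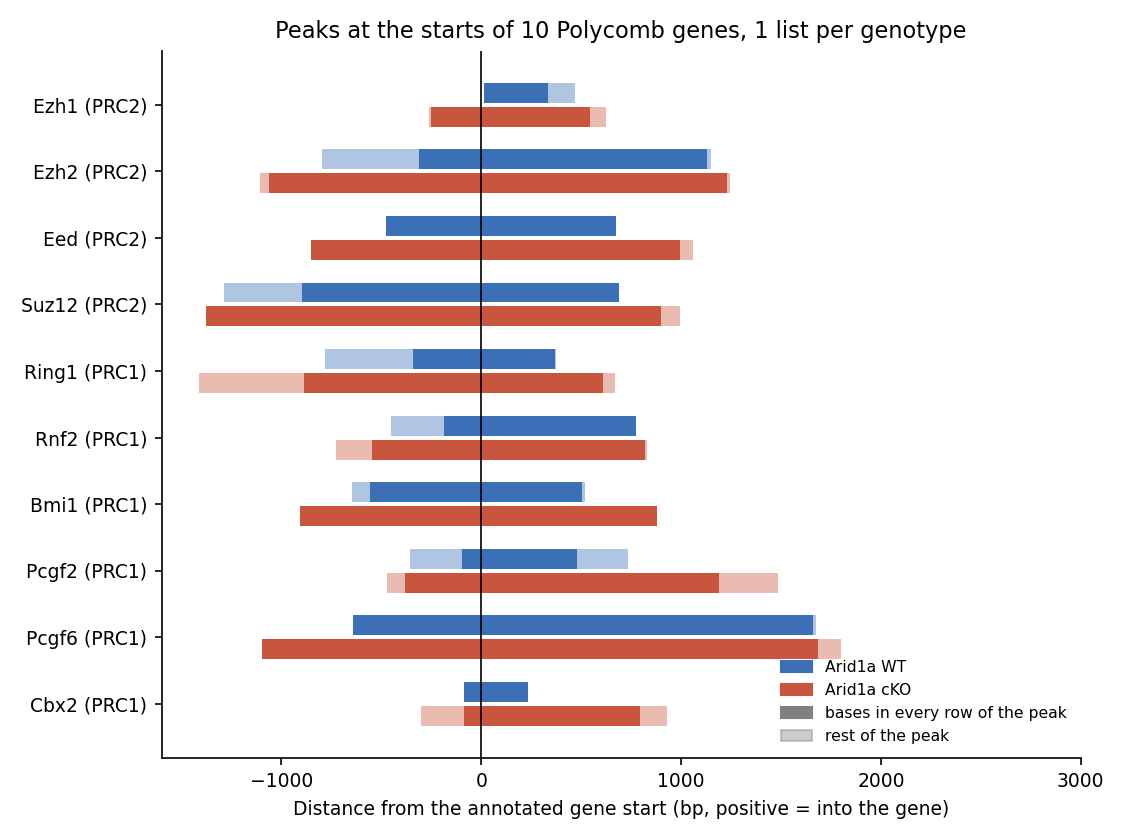
Position of the promoter peaks of the 10 Polycomb genes relative to the annotated gene start (x axis, in bp, positive into the gene), in *Arid1a* WT (blue) and *Arid1a* cKO (red). The second promoter peak of *Bmi1*, which begins 4019 bp into the gene in WT and 3547 bp in cKO, is not drawn. Dark bars mark bases common to every row of a peak and pale bars the rest of it. Each cKO peak runs past the WT peak on both sides, and the WT peak of *Ezh1* lies wholly inside the gene.

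The promoter windows below are printed because they belong to the members with the highest and lowest cKO to WT ratio in each complex (*Suz12* and *Eed* for PRC2, *Pcgf2* and *Bmi1* for PRC1) and to *Ezh1*, which was added after its values were seen because its WT peak missed the window. Each is the 250 bases upstream of the transcript start in RefSeq (GRCm38.p6), written on the strand of the gene. Capitals mark matches, on either strand, to the short motifs spelled out after the sequences. Promoters of 9 of the 10 members were matched, and *Cbx2* was not.
Suz12 (chr11:79992856-79993105, plus strand): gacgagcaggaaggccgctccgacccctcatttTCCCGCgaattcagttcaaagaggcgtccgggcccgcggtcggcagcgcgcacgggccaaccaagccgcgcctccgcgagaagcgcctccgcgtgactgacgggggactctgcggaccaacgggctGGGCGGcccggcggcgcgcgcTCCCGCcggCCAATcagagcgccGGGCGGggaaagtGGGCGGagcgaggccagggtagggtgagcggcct
Eed (chr7:89980977-89981226, minus strand): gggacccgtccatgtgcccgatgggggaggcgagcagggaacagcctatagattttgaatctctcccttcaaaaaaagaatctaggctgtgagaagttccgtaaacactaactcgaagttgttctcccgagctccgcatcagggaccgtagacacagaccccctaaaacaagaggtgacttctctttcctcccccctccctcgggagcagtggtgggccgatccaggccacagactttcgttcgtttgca
Pcgf2 (chr11:97699649-97699898, minus strand): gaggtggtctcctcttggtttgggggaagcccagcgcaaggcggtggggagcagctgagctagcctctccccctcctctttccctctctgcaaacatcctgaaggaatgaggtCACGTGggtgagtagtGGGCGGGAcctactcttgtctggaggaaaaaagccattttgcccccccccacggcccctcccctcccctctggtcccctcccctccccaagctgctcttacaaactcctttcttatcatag
Bmi1 (chr2:18676768-18677017, plus strand): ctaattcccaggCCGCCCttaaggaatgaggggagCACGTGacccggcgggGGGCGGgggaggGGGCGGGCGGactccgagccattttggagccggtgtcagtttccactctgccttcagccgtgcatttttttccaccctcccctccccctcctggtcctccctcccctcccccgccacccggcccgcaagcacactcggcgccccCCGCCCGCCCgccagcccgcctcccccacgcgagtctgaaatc
Ezh1 (chr11:101226464-101226713, minus strand): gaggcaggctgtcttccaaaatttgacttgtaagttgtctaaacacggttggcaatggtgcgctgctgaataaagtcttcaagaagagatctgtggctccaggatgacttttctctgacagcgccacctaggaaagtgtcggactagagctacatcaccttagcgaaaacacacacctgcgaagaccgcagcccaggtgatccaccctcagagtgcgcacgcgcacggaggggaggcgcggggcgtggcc
The *Suz12* window carried 37 CG dinucleotides and the *Pcgf2* window 5, the extremes of the 9 members, whose median was 20, against a median of 6 over 32841 promoters. At least 20 were found in 18.0% of all promoters. GC content ran from 54.4% at *Eed* to 73.6% at *Suz12* and *Ring1*, against a median of 52.4%. The 32841 promoters were not limited to those with a peak, whereas all 9 members had a promoter peak in both lists. These values are therefore not matched for accessibility. The *Pcgf2* window ends at a start inside the gene, and no annotated exon overlaps it.

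Letter matches differed between the members. TCCCGC, the core of the E2F6 site, was found at *Suz12*, *Rnf2* and *Pcgf2*, 3 of 9 members, and in 16.9% of all promoters. CACGTG, the E-box read by the MGA and MAX proteins, was found at *Bmi1* and *Pcgf2*, 2 of 9 members, and in 6.02% of all promoters. GGGCGG, the Sp factor box, was found at 6 of 9 members (*Suz12*, *Ring1*, *Rnf2*, *Bmi1*, *Pcgf2* and *Pcgf6*) and in 32.7% of all promoters, and in the *Pcgf2* window it overlaps the TCCCGC match. CCAAT, the NFY box, was found at *Ezh2* and *Suz12*, 2 of 9 members, and in 33.9% of all promoters. CCGGAAG, an ETS factor site, and GCGCATGC, the NRF1 core, were found at 0 of 9 members and in 6.91% and 2.26% of all promoters. These are matches of letters and not binding sites, and the shares of all promoters were again not limited to promoters with a peak. The WT peaks covered 7 of the 9 windows in full, 138 of the 250 bases at *Pcgf2* and 0 bases at *Ezh1*, whereas the cKO peaks covered 9 of 9 in full.

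Among the PRC2 genes, *Ezh2* had the strongest peak of all 10 members in both lists. *Ezh2* encodes the main methyltransferase of the complex. Its WT peak (chr6:47594193-47596138, 1946 bp) had a fold enrichment of 15.8 (12.6 to 19.5, from 83 fragments). Its cKO peak (chr6:47594096-47596447, 2352 bp) had 28.5 (24.4 to 33.0, from 173 fragments), a ratio of 1.81. The intervals of the genotypes did not overlap. The peak ranked at percentile 89.2 among the shared promoters in WT and 93.1 in cKO, so it was among the more accessible promoters of both lists.

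*Ezh1*, which encodes the other methyltransferase of PRC2, had a much weaker peak than *Ezh2*. The WT peak (chr11:101225994-101226447, 454 bp) began 16 bp inside the gene, its centre lay in an intron, and its fold enrichment was 5.25 (3.53 to 7.56, from 27 fragments). The cKO peak (chr11:101225838-101226724, 887 bp) reached 261 bp upstream of the gene start and had 9.16 (6.94 to 11.9, from 55 fragments). The ratio of folds was 1.74. The intervals of the folds overlapped, while the interval of the pileup ratio, 1.07 to 2.85, stayed above 1. The rows of the WT peak were 318 to 454 bp wide and those of the cKO peak 798 to 887 bp. These ranges did not meet, though a row cannot be wider than the peak of the reference library. *Ezh1* stood at percentile 20.8 of the shared promoters in WT and 27.2 in cKO.

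*Suz12*, which encodes the scaffold that holds PRC2 together, showed the largest ratio of the PRC2 genes. The fold enrichment was 13.5 (10.6 to 17.0, from 71 fragments) in WT at chr11:79991820-79993795 and 28.1 (24.1 to 32.7, from 171 fragments) in cKO at chr11:79991729-79994099. The ratio was 2.08, or 1.06 on the log2 scale, at percentile 95.3 of all genes with both peaks. Its width changed little, from 1976 to 2371 bp. At *Suz12* the lists therefore differed more in height than in width.

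*Eed*, which encodes the subunit that reads the methyl mark, had the smallest ratio of the PRC2 genes. The fold enrichment was 10.3 (7.80 to 13.4, from 54 fragments) in WT at chr7:89980309-89981462 and 16.5 (13.5 to 20.1, from 100 fragments) in cKO at chr7:89979924-89981833. The ratio of 1.60 was close to the median of 1.57 over all genes with both peaks. The peak was 1154 bp wide in WT and 1910 bp in cKO, the WT rows all being 1154 bp and the cKO rows 1843 to 1910 bp. It also touched the promoter of the noncoding RNA gene *E230029C05Rik*, and the peak belongs to both starts.

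Among the PRC1 genes, the pair that encodes the ubiquitin ligases, *Ring1* and *Rnf2*, had intermediate peaks. *Ring1* had a fold enrichment of 9.38 (6.99 to 12.3, from 49 fragments) in WT at chr17:34024306-34025463 and 14.7 (11.9 to 18.1, from 89 fragments) in cKO at chr17:34024012-34026091. *Rnf2* had 12.6 (9.76 to 15.9, from 66 fragments) in WT at chr1:151500179-151501405 and 17.5 (14.4 to 21.1, from 106 fragments) in cKO at chr1:151500125-151501682. *Rnf2* was thus the higher in both lists and *Ring1* had the larger ratio, 1.57 against 1.39. The interval of the pileup ratio was 1.07 to 2.23 for *Ring1* and held 1 for *Rnf2*, at 0.991 to 1.88. The *Ring1* peak spread by 628 bp upstream, the longest upstream extension of the 10 members, and touched the promoters of the noncoding genes *Gm26940*, *Mir219a-1* and *Mir219c*. The *Rnf2* peak touched that of *Gm36527*.

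*Bmi1*, *Pcgf2* and *Pcgf6* encode alternative partners of the ligases that set which form of PRC1 is built, and their peaks ran from the smallest to the largest ratio of the set. *Bmi1* had a fold enrichment of 11.1 (8.45 to 14.3, from 58 fragments) in WT at chr2:18676373-18677536 and 13.1 (10.4 to 16.3, from 79 fragments) in cKO at chr2:18676111-18677897. Its ratio of 1.18 lay at percentile 8.17 of all genes with both peaks, and the interval of the pileup ratio, 0.812 to 1.65, held 1. The peak was still wider in cKO, 1787 against 1164 bp, and its rank among the shared promoters was at percentile 68.3 in WT and 47.1 in cKO.

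*Pcgf2*, the closest relative of *Bmi1* among the members, lay at the other end. Its fold enrichment was 6.0 (4.14 to 8.44, from 31 fragments) in WT at chr11:97699761-97700853 and 14.2 (11.4 to 17.5, from 86 fragments) in cKO at chr11:97699012-97700971. The ratio was 2.37, or 1.25 on the log2 scale, at percentile 98.8. In WT *Pcgf2* was well below *Bmi1*, with intervals that met only at their ends (8.44 and 8.45), and in cKO the pair overlapped. The peak spanned 1093 bp in WT and 1960 bp in cKO, with 749 added bp on the side of the gene body and 118 upstream, and the added bases covered the rest of the printed window.

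*Pcgf6*, whose product belongs to a form of PRC1 that represses germline genes in other cells, had the widest peak of the set. It spanned 2317 bp in WT at chr19:47049231-47051547, with a fold enrichment of 11.1 (8.45 to 14.3, from 58 fragments), and 2899 bp in cKO at chr19:47049104-47052002, with 16.2 (13.2 to 19.7, from 98 fragments). The WT summit pileup equalled that of *Bmi1*, and the ratio, 1.46, was larger than that of *Bmi1*. The rows were 2304 to 2317 bp wide in WT and 2781 to 2899 bp in cKO.

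*Cbx2*, which encodes a chromodomain protein that docks PRC1 to chromatin, had the narrowest WT peak of the 10 promoters and the largest ratio of widths. The peak spanned 321 bp in WT at chr11:119022877-119023197 and 1232 bp in cKO at chr11:119022662-119023893, a ratio of 3.84 at percentile 97.3 of all genes with both peaks. The fold enrichment was 5.25 (3.53 to 7.56, from 27 fragments) in WT and 8.18 (6.10 to 10.8, from 49 fragments) in cKO. The ratio of folds was 1.56, close to the median of all genes, and the interval of the pileup ratio, 0.943 to 2.56, held 1. *Cbx2* and *Ezh1* had the same summit pileup in WT and were the weakest members in both lists.

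**Figure D2:**
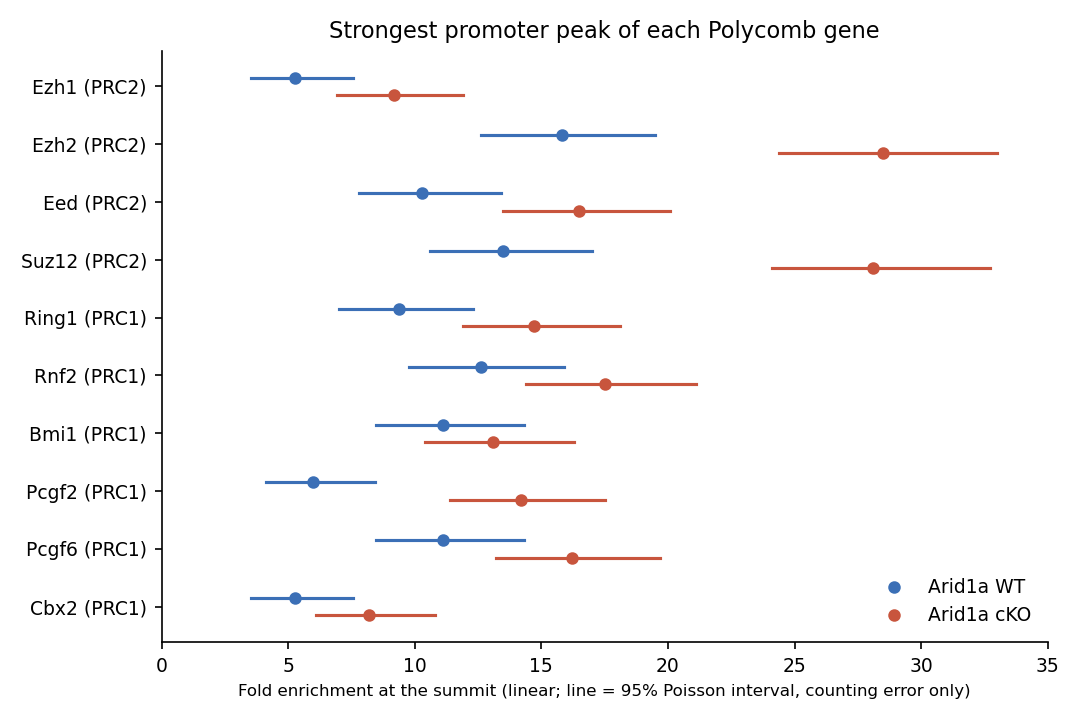
Fold enrichment (x axis, linear ratio of summit pileup to background) of the strongest promoter peak of each Polycomb gene in *Arid1a* WT (blue) and *Arid1a* cKO (red), with 95% Poisson intervals as lines. Each cKO point lies to the right of its WT point, by the least at *Bmi1* (11.1 and 13.1), and the intervals are clear of each other at *Ezh2*, *Eed*, *Suz12* and *Pcgf2*.

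Peaks away from the main start were found at *Bmi1* and *Pcgf2*. *Bmi1* had a second peak about an alternative start inside the gene, at chr2:18681037-18681411 in WT (375 bp, fold enrichment 3.38, 2.05 to 5.29, from 17 fragments) and at chr2:18680565-18681698 in cKO (1134 bp, 6.38, 4.56 to 8.70, from 38 fragments). It stood on 2 rows in WT and 3 in cKO, and its cKO fold was above the median of that list, 4.91. *Pcgf2* had a peak centred in an exon of its body, at chr11:97689993-97690528 in WT (536 bp, 2.81, 1.62 to 4.59, from 14 fragments) and at chr11:97689967-97690681 in cKO (715 bp, 3.11, 1.91 to 4.82, from 18 fragments). The latter stood on 1 row in WT and 3 in cKO, and its pileups were near the lowest in each list, 13 and 14. The other 8 members had 1 peak each in both lists.

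PRC2 and PRC1 members differed in the middle of their ratios, while their ranges overlapped. The median log2 ratio of cKO to WT fold was 0.83 over the 4 PRC2 genes, from 0.68 to 1.06, and 0.59 over the 6 PRC1 genes, from 0.24 to 1.25. The median over all genes with both peaks was 0.65, with 0.47 and 0.80 as lower and upper quartile. All 4 PRC2 members and 2 of 6 PRC1 members (*Ring1* and *Pcgf2*) stood above the median gene. A ratio of at least 1.5 was reached by 4 of 4 PRC2 genes and 3 of 6 PRC1 genes (*Ring1*, *Pcgf2* and *Cbx2*), beside the background of 59.4%. The PRC2 range lay wholly inside the PRC1 range, and genes are not replicates of a condition, so no test was made of the difference.

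Rank and width did not follow the same order. The median percentile of fold among shared promoters moved from 72.2 to 77.7 for PRC2 and from 62.5 to 53.6 for PRC1. That rank was higher in cKO at 3 of 4 PRC2 genes and 2 of 6 PRC1 genes. Among all peaks of a list, by contrast, the strongest promoter peak ranked higher in cKO at every member but *Bmi1*. At *Bmi1* it stood at percentile 84.3 in WT and 82.7 in cKO. The cKO list was the longer (30244 against 19309 peaks) and had the lower median fold (4.91 against 5.25). The fold itself was higher in cKO at 97.9% of all genes with both peaks. The share of all genes with a higher rank was not computed for either ranking, so these counts do not set the members apart. The median width ratio was 1.43 for PRC2, from 1.20 to 1.95, and 1.66 for PRC1, from 1.25 to 3.84, beside 1.44 for all genes. The bases under peaks were 5530 in WT and 7520 in cKO at PRC2 genes, a ratio of 1.36, and 8191 and 13365 at PRC1 genes, a ratio of 1.63. The order of the width ratios was the reverse in the wider list described below, with a median of 1.71 over the other PRC2 genes and 1.45 over the other PRC1 genes. The added bases had a median of 277 bp upstream and 299 bp downstream over the 10 members, and the upstream part was the larger at 5 of them. The split within a gene was mostly uneven, from 118 bp upstream and 749 downstream at *Pcgf2* to 628 upstream and 294 downstream at *Ring1*, and it was near even at *Eed* (371 and 385 bp).

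**Figure D3:**
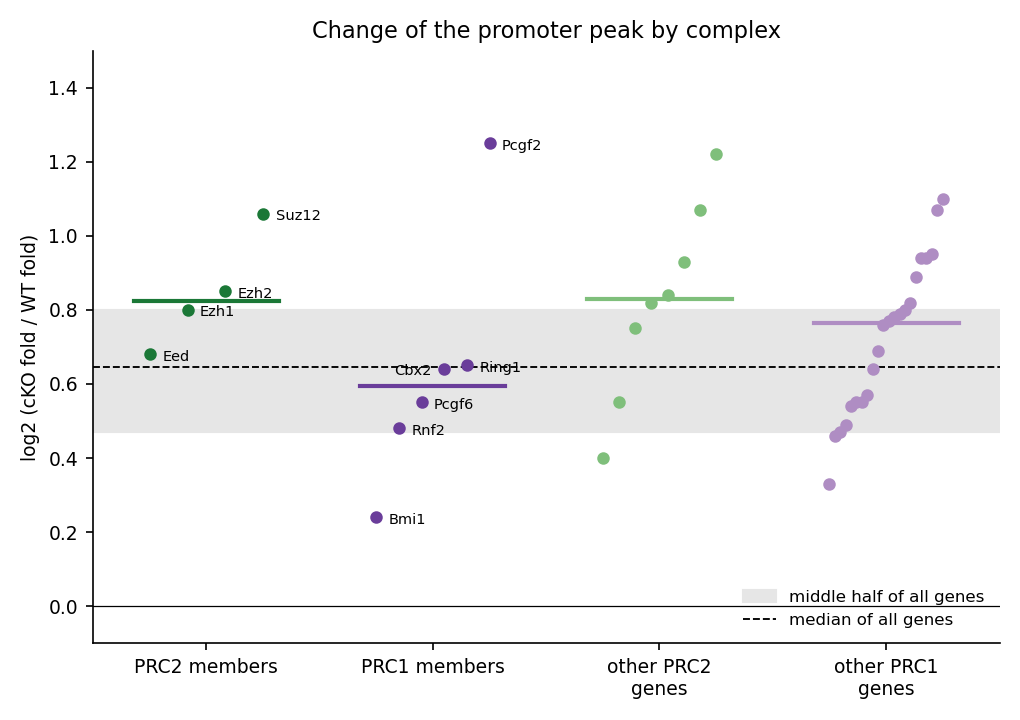
Log2 ratio of cKO to WT fold enrichment of the promoter peak (y axis) for PRC2 members, PRC1 members and the other genes of each complex, with a point per gene and a bar at the group median. The dashed line is the median of all genes with both peaks (0.65) and the grey band runs from 0.47 to 0.80. PRC2 members sit from 0.68 to 1.06, inside the span of PRC1 members from 0.24 to 1.25.

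Counting error limited the reading of single genes. The interval of the pileup ratio lay above 1 at 7 of 10 members and held 1 at *Rnf2*, *Bmi1* and *Cbx2*. In the wider list described below, it lay above 1 at 19 of 30 genes with both peaks and held 1 at 11. Set against the median pileup ratio of all genes with both peaks, 1.54, the interval lay above it at *Suz12* and *Pcgf2*, both by less than the rounding of their lower bounds, held it at 8 members and lay below it at 0. A difference from the genome-wide ratio was therefore not detectable at this depth for 8 of the 10 members. The share of all genes whose interval lay above 1 or above 1.54 was not computed, so these counts do not set the members apart.

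**Figure D4:**
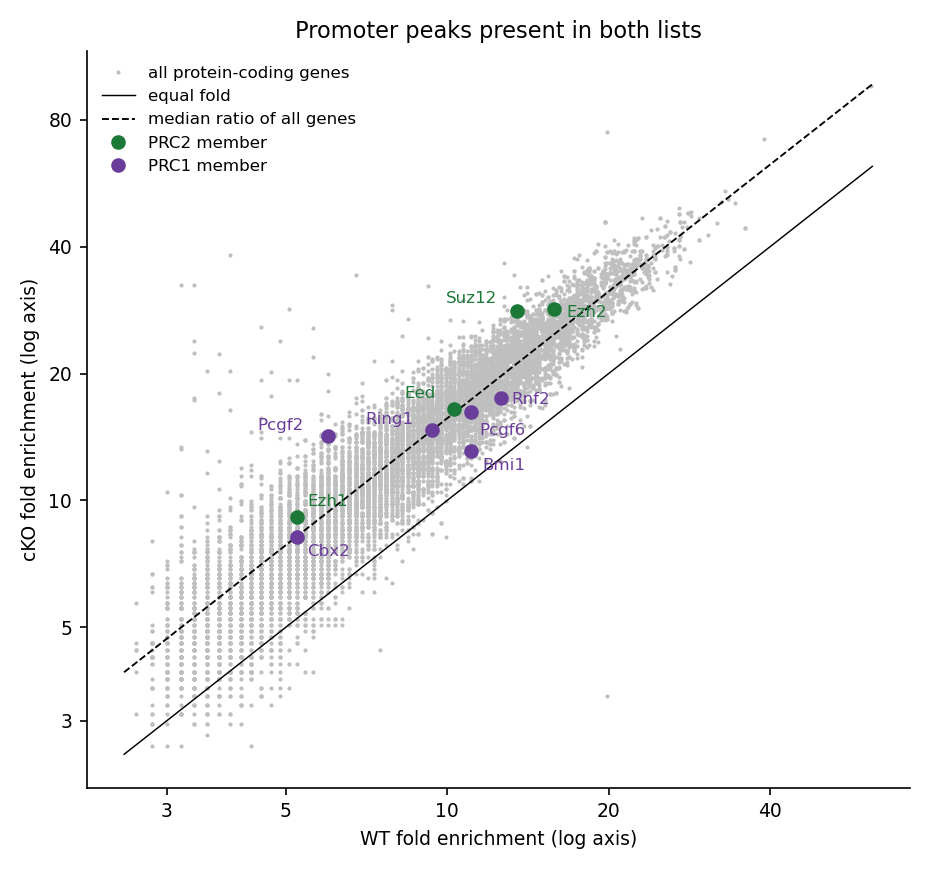
Promoter fold enrichment in *Arid1a* WT (x axis, log scale) and *Arid1a* cKO (y axis, log scale) for 10839 protein-coding genes with a promoter peak in both lists (grey), with PRC2 members in green and PRC1 members in purple. The solid line marks equal folds and the dashed line the median ratio. The members lie within the cloud, *Pcgf2* and *Suz12* at its upper edge and *Bmi1* nearest to equality.

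The wider list of Polycomb genes, 23 of PRC1 and 9 of PRC2, likewise had higher promoter folds in cKO, and it held gained peaks in the lists as deposited. A promoter peak was present at 30 of 32 genes in WT and 31 in cKO, beside 49.7% and 56.7% of all protein-coding genes. The cKO fold of the strongest promoter peak was higher at 30 of the 30 genes with both. This was close to the share of 97.9% over all genes with both peaks. At 3 of these (*Scml2*, *Bcorl1* and *Jarid2*) the strongest peaks of the lists lay at different starts, and at the start that was strongest in WT the *Jarid2* fold was 8.44 in WT and 10.6 in cKO. The median log2 ratio was 0.83 over 8 other PRC2 genes, from 0.40 to 1.22, and 0.76 over 22 other PRC1 genes, from 0.33 to 1.10. A ratio of at least 1.5 was reached by 6 and 14 of them, beside 59.4% of all genes. The medians of the complexes were thus closer than among the members, and the ranges again overlapped.

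The genes at the ends of this list came from both complexes. The highest log2 ratios were those of *Phf1* (1.22), which encodes a reader subunit of PRC2, *Pcgf3* (1.10), a Pcgf partner in PRC1, and *Rbbp7* (1.07), a histone-binding subunit of PRC2. *Rbbp7* lies on X, whereas *Phf1* and *Pcgf3* are autosomal. The *Phf1* peak was 8518 bp wide in WT. The lowest were those of *Rybp* (0.33) and *Mga* (0.46), of variant PRC1, and *Mtf2* (0.40), of PRC2. *Yaf2*, the relative of *Rybp*, had no peak in WT and a promoter peak in cKO (chr15:93336889-93337650, 762 bp, fold enrichment 5.07, on 3 rows), and *Phf19* had no peak in either list.

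Gained peaks lay almost wholly at PRC1 genes of the wider list. There were 30 gained peaks in 13 of 32 genes, 29 of them in 12 PRC1 genes and 1 at the PRC2 gene *Jarid2*, beside 23.6% of all genes. The 1 lost peak was at *Kdm2b*, which encodes the subunit that recruits a PRC1 form to CpG islands (chr5:122987171-122987486, fold enrichment 3.19, on 1 row), beside 2.2% of all genes. The 5 genes on X contributed 12 of the gained peaks in 3 genes, with 7 at *Bcor*, 4 at *Scml2* and 1 at *Bcorl1*, and held 3141 bases under peaks in WT and 15631 in cKO. The 27 autosomal genes had 18 gained peaks in 10 genes, and held 54476 and 85883 bases under peaks. All 10 members are autosomal. The median gene length was 52658 bp for the other PRC1 genes, 20270 bp for the other PRC2 genes, 21810 bp for the members and 17425 bp for all protein-coding genes, and the part of length in these counts was not tested.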

How the data were processed

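Pachytene spermatocytes of 4 *Arid1a* WT and 4 *Arid1a* cKO preparations were profiled by Omni-ATAC, and groups were taken from the genotype labels. Nothing in the sources used here tied libraries to separate sets of animals. Per the labels and the study's methods, the authors trimmed reads with Trim Galore, aligned pairs to mm10 with Bowtie2, removed duplicates with Picard and mitochondrial reads with SAMtools, called peaks per library with MACS2 without a local background, and intersected replicates. No mapping quality filter was stated. The 2 deposited lists, 1 per genotype, gave for each peak a fold enrichment, a linear ratio of summit pileup to library background, and −log10 p and −log10 q values by the authors' peak caller. Which library supplied the values was not given in the sources used here.

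Rows were collapsed by peak name in Python 3.11.15 with pandas 2.3.3, numpy 2.4.6 and scipy 1.17.1. Pileups were recovered from the fold grid, and 100% came out whole within 0.05 fragments among folds under 12, while higher ones, whose deposited digits are too coarse for that check, were rounded. Peaks were assigned with GENCODE annotation of mm10, and peaks of the lists were shared at 1 bp or more. Where several promoter peaks existed, the one of highest fold was used. Intervals of the pileup ratio were exact and conditional on the sum of both pileups. A percentile is the share of genes with a promoter peak in both lists that lie at or below the value. The steps were tested on simulated lists. Named genes were all 10 members and, of the wider list, those with a lost peak or a promoter peak in one list, and the 3 highest and 3 lowest ratios. The members and lists were chosen with earlier results of these data known. *Jarid2*, *Bcor*, *Scml2* and *Bcorl1* were named after their values were seen.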

Additional observations from a re-analysis of the deposited data

How the results depend on the processing

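The 15 alternatives gave 85 comparisons with the values above, and 81 stayed within the limits set (1.5 times for counts and ratios, 1 SD of 0.29 for log2 ratios), with 0 reversed. The other 4 were counts of gained or lost peaks at the members, which were 0 with the lists as deposited. A minimum −log10 q of 5 gave 1 gained peak, a minimum of 10 also gave 1, and requiring 3 or more rows gave 2, while lists cut to equal length gave 1 lost peak. These follow from the construction of the filters, which removed the weak WT or cKO counterpart of the second *Bmi1* peak or of the *Pcgf2* body peak. The median log2 ratio of the members was 0.64 to 0.67. The PRC1 median minus the PRC2 median was -0.23 for the members and -0.16 with the members and the wider list pooled. Without the members, the medians were closer, 0.76 over the other PRC1 genes and 0.83 over the other PRC2 genes. The limit of 0.29 was wider than the difference among the members, so staying within it does not show that the difference holds. The strongest promoter peak of every member had a −log10 q of at least 10.8 and 3 rows in both lists. The filters on q and rows could therefore not change the log2 ratios of the members. By rank among all peaks of a list in place of the fold, the median change of the PRC1 members minus that of the PRC2 members was -1.14 percentile points. Depth limited single genes, since the intervals of 8 members held the median ratio of all genes. No paired analysis was possible because each genotype had 1 pooled list and no value per library. No library could be left out for the same reason.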
